A study of Rattus norvegicus with 2 samples.

Results

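The acyl-CoA synthetases and thioesterases described here are 10 rat genes, listed by family and with earlier results of these data known. Of these, 4 encode long-chain acyl-CoA synthetases (Acsl1, Acsl3, Acsl4 and Acsl5) and 6 encode acyl-CoA thioesterases (Acot1, Acot2, Acot3, Acot4, Acot8 and Acot12). They were taken from 14217 genes represented on the arrays, through every probe set annotated to exactly 1 gene, and had 15 such probe sets in all. The study compared liver RNA of male Wistar rats, 2 months old and 250 to 300 g, on 2 Affymetrix expression arrays. Fasted rats had been without food for 18 h, and the olive oil rats were fasted for the same 18 h, given 5 ml of extra virgin olive oil by mouth, about 16 ml per kg, and killed 4 h later. Each group is 1 array of whole liver. The labels leave unsaid how many rats stand behind an array and whether the fasted group waited those 4 h as well.

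Long-chain acyl-CoA synthetases join a fatty acid to coenzyme A, the step called activation, which is needed before a fatty acid can be oxidized or built into triglyceride, phospholipid or cholesteryl ester. Acyl-CoA thioesterases run the opposite way and split acyl-CoA into free fatty acid and coenzyme A, in the cytosol, in mitochondria or in peroxisomes according to the member. In liver several genes of both kinds are known targets of PPAR-alpha, a nuclear receptor for fatty acids that is active in fasting.

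Most members of both kinds had a lower signal on the olive oil array. Of the 10 genes, 8 were lower by some amount, where 51.7% of 9209 measured genes were. At least 1.5-fold lower were 5 (Acsl3, Acot1, Acot3, Acot4 and Acsl5), against 10.1% of measured genes, and 0 were at least 1.5-fold higher, against 9.44%. Acsl3 was the only member at least 2-fold lower, a size reached by 2.92% of measured genes. With the arrays centred on their medians, 12.7% of measured genes were at least 1.5-fold lower and 7.6% higher, and the share of lower ones among both went from 51.7% to 62.5%, while the members gave the same counts of 5 and 0 at 1.5-fold.

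Measured genes are those whose brightest probe set, which stands for the gene, had a mean log2 signal at or above the middle of the probe sets (41.4 as a signal), and all 10 members did. With 1 array per group no test, standard deviation or p-value over animals is possible, so that every difference here compares 2 arrays and has no replicate check. The only internal yardstick is the disagreement between probe sets of the same gene, which had a pooled standard deviation of 0.35 in log2 units (2290 genes). It was 0.44 over 751 genes between the median and the 75th percentile of signal and 0.23 over 853 genes above it, and covers probe error only.

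**Figure D1:**
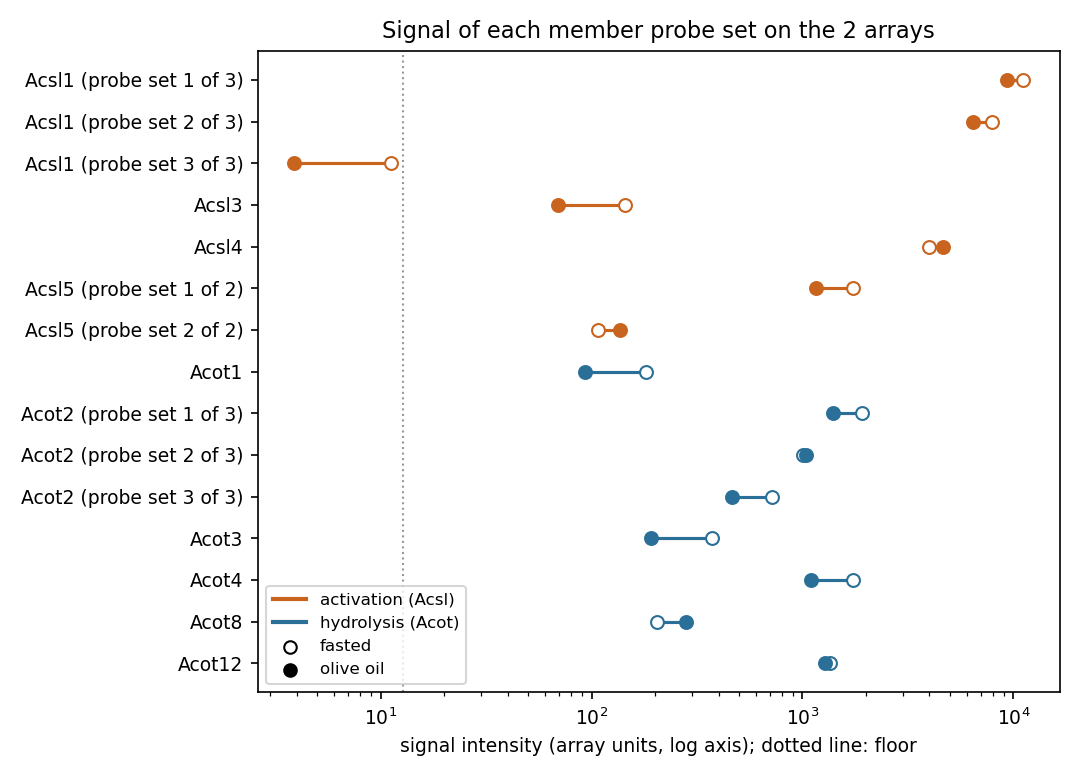
Signal intensity (log axis, array units) of the 15 probe sets of the 10 genes on the fasted array (open circles) and the olive oil array (filled circles), activation genes in orange and hydrolysis genes in blue. The filled circle lies to the left for Acsl3, Acot1, Acot3 and Acot4, and to the right for Acsl4 and Acot8. The 3rd probe set of Acsl1 lies below the floor of 12.8, the dotted line, on both arrays.

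Among the activation genes, Acsl1, the main long-chain synthetase of hepatocytes, was very bright on both arrays. Its signal was 11143 in fasted liver and 9309 after oil, a log2 difference of -0.26 or 1.20-fold lower. A second probe set gave 7921 and 6458, a log2 difference of -0.29, so that these probe sets agreed to within 0.04. The third stood at 11.2 and 3.9, under the floor of 12.8 on both arrays, and carries no order.

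Acsl3, which acts at the endoplasmic reticulum and on growing lipid droplets, had the lowest difference of the 10 genes. Its single probe set read 143.3 in fasted liver and 69.1 after oil, 2.07-fold lower, a log2 difference of -1.05. Of all measured genes, 232 had a lower difference. This probe set is dim, below the 75th percentile of signal, and with an offset of 16 added to each signal its log2 difference was -0.90, under 2-fold.

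Acsl5, a synthetase of mitochondria and the endoplasmic reticulum, was 1.51-fold lower on its brighter probe set, at 1744.7 and 1153.3, a log2 difference of -0.60. Its other probe set pointed the other way, at 107.2 and 136.3, a log2 difference of 0.35. Averaged over both probe sets the difference was -0.13, and with quantile normalization of the arrays it was -0.58, each below the 1.5-fold size. The direction for Acsl5 therefore depends on the probe set, and it sits just inside the 1.5-fold line where Acot2, at 1.36-fold, sits outside it.

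Acsl4, which prefers arachidonic acid and other polyunsaturated fatty acids, was the activation gene with the opposite sign. Its signal went from 3972 to 4639, a log2 difference of 0.22 or 1.17-fold higher. This is smaller than the scatter of 0.23 between probe sets of bright genes, and Acsl4 has no second probe set to compare.

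Among the hydrolysis genes, Acot1, the cytosolic long-chain thioesterase, was close to 2-fold lower. Its signal was 181.4 in fasted liver and 92.6 after oil, 1.96-fold lower, a log2 difference of -0.97, and 297 measured genes had a lower difference. Acot3, a peroxisomal thioesterase, gave 370.6 and 191.3, 1.94-fold lower, a log2 difference of -0.95. Each of these genes has a single probe set, and how far those bind each other's transcripts was not tested.

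Acot4, another peroxisomal thioesterase, which also acts on succinyl-CoA, was bright at 1739.7 and 1098.0, 1.58-fold lower, a log2 difference of -0.66. Acot2, the mitochondrial member, was lower on 2 of its 3 probe sets. The brightest stood at 1908.4 and 1398.7, a log2 difference of -0.45, another at 720.4 and 461.7, a difference of -0.64, and the third at 1009.0 and 1039.4, a difference of 0.04. The mean over the 3 probe sets was -0.35.

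Acot8, a peroxisomal thioesterase of broad substrate range, went the other way. The signal of its single probe set was 205.0 and 280.9, 1.37-fold higher, a log2 difference of 0.45, and 1274 of 9209 measured genes had a higher difference. Acot12, a cytosolic enzyme that hydrolyses acetyl-CoA, was nearly equal at 1355.0 and 1276.6, a log2 difference of -0.09. Neither reached the 1.5-fold size.

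**Figure D2:**
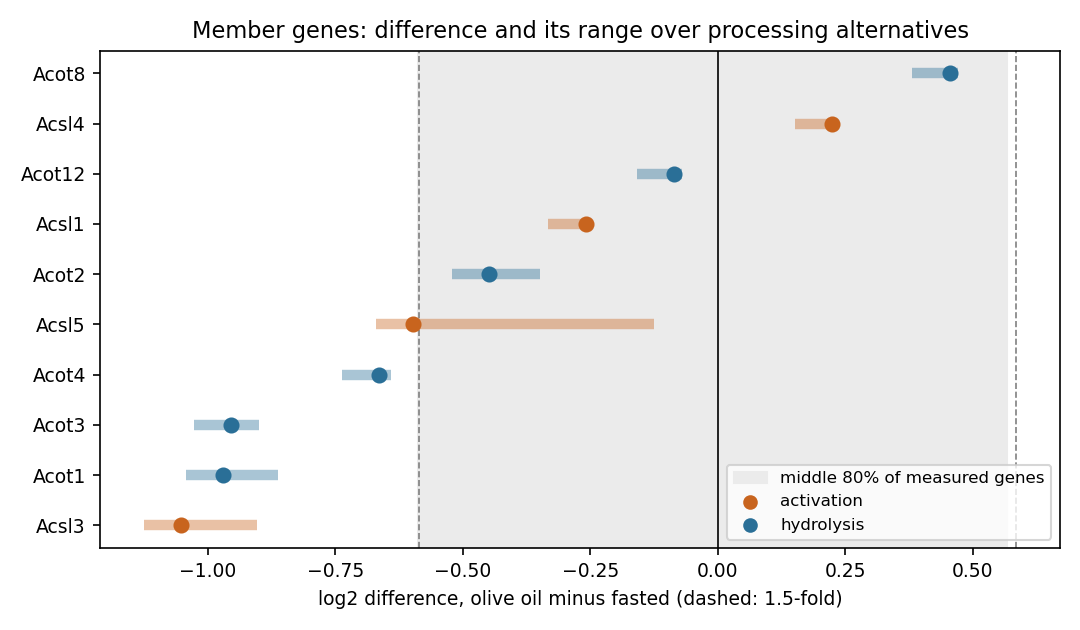
Log2 difference, olive oil minus fasted, of each member gene (points), with the lowest and highest value over 9 processing alternatives (bars), against the middle 80% of measured genes (grey, from -0.59 to 0.57). Acsl3, Acot1, Acot3 and Acot4 lie to the left of the grey band under every alternative in which they were measured, while the bar of Acsl5 reaches from -0.67 to -0.13.

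Set against each other, activation and hydrolysis were lower by similar amounts. The median log2 difference was -0.43 over the 4 synthetases and -0.56 over the 6 thioesterases, while that of all measured genes was -0.01. The medians differed by 0.13 and the means, -0.42 and -0.44, by 0.02. Differences ran from -1.05 to 0.22 among the synthetases and from -0.97 to 0.45 among the thioesterases, so that the ranges overlapped almost entirely. Each kind thus held members about 2-fold lower beside members slightly higher, and the spread inside a kind, 1.28 and 1.42, was about as wide as that of the 10 genes together. Over single probe sets, 4 of 6 measured for synthetases and 6 of 8 for thioesterases were lower. Of measured genes, each by its brightest probe set, 51.7% were. When a gene's measured probe sets were averaged, the medians were -0.20 and -0.51, a gap of 0.31, mostly through Acsl5 with its difference of -0.13. Signals of different probe sets are not comparable in level, so that no ratio of synthetase to thioesterase RNA was formed.

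By the compartment in which the thioesterases are known to act, the differences were mixed. The cytosolic members Acot1 and Acot12 differed by -0.97 and -0.09 on the log2 scale. The peroxisomal members Acot3 and Acot4 differed by -0.95 and -0.66, but Acot8, of the same organelle, by 0.45. Mitochondrial Acot2, at -0.45, lay between.

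By position in the genome the thioesterases divide into a row of neighbours and 2 genes elsewhere. In the RefSeq gene order of the GRCr8 assembly, Acot2, Acot1, Acot4 and Acot3 follow each other on chromosome 6 on the plus strand, with only the gene model Rpl23al8 among them, and 70.9 kb separate the start of Acot2 from that of Acot3. Acot5 and Acot6 follow in the same row but had no probe set annotated to exactly 1 gene, so they could not be analysed. All 4 genes of this row were lower and 3 were at least 1.5-fold lower, where 51.7% and 10.1% of measured genes were. The row had a median log2 difference of -0.81 and a range from -0.97 to -0.45. Acot12 on chromosome 2 and Acot8 on chromosome 3 differed by -0.09 and 0.45. This split by place was made after the values were seen and has no test. The genes of the row are close relatives, and a probe set listed for both Acot2 and Acot1, and therefore outside the rule, stood at 423.2 and 209.0, a log2 difference of -1.02. How far the probe sets of the row bind each other's transcripts was not tested, so that these 4 differences are not assured to be separate measurements.

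Because several members are known PPAR-alpha targets, the stretch before each gene's start was searched for the receptor's element. The letters searched were AGGTCA on either strand, and the direct repeat of AGGTCA with 1 base between its copies, known as DR1, with at most 2 mismatches, in the 250 bases before the RefSeq start. A DR1 match was present in 3 of 10 members, Acot4, Acot8 and Acot12, and each had 1 mismatch and held 1 exact AGGTCA, which overlaps the repeat. Of 27456 such stretches in the table, 1 per gene, 3.11% held the repeat at this limit and 13.7% held AGGTCA. The matches are shown with up to 8 bases on each side, in the direction of the gene, since they fall on members whose differences had unlike signs, and the capitals mark the repeat.
Acot4: cagaagccAGACCTCTGACCT
Acot8: cacgccagGGGTCAGAGGTCActgggtaa
Acot12: taggacccTGACCTCTCACCTcctaagca
The Acot4 stretch is chr6:109399604-109399853 on the plus strand, the Acot8 stretch chr3:173962189-173962438 on the minus strand and the Acot12 stretch chr2:24721709-24721958 on the plus strand, all GRCr8. Matches lay 13 to 1 bases before the start of Acot4, 22 to 10 before that of Acot8 and 105 to 93 before that of Acot12. The stretches of Acot4 and Acot12 overlap a longer gene model of the same gene, as do those of Acsl1, Acsl4, Acot2 and Acot3, which held no match.

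Of the genes with a match, Acot4 was 1.58-fold lower, Acot8 1.37-fold higher and Acot12 nearly equal. The 3 genes with the lowest differences, Acsl3, Acot1 and Acot3, held no match at this limit, but only 3.11% of all stretches do, so that absence is the usual state. A match is only a string of letters in this window, and its absence speaks for these 250 bases alone. The whole stretch is shown for Acot8, the member with the highest difference, and for Acot1 and Acsl3, the members with the lowest, with any repeat in capitals. That of Acot1 is chr6:109367024-109367273 and that of Acsl3 chr9:87563351-87563600, both on the plus strand of GRCr8. The stretch of Acsl3 is rich in G and C, at 72.4%, against 49.6% for Acot1 and 58.8% for Acot8.
Acot8: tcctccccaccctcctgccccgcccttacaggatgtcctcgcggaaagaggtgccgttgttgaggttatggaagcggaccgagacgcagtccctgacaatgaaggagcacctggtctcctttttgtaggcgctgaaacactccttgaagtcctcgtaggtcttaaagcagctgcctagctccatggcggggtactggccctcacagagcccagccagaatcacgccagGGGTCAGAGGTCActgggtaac
Acot1: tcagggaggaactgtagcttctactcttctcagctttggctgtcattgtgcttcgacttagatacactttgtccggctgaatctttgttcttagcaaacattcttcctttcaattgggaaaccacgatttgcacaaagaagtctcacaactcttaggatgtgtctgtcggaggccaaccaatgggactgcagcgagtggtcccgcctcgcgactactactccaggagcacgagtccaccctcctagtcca
Acsl3: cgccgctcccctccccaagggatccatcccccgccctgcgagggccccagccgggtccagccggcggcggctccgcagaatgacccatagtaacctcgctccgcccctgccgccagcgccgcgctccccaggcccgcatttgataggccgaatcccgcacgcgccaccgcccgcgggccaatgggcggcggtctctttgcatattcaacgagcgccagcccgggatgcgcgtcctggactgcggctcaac

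**Figure D3:**
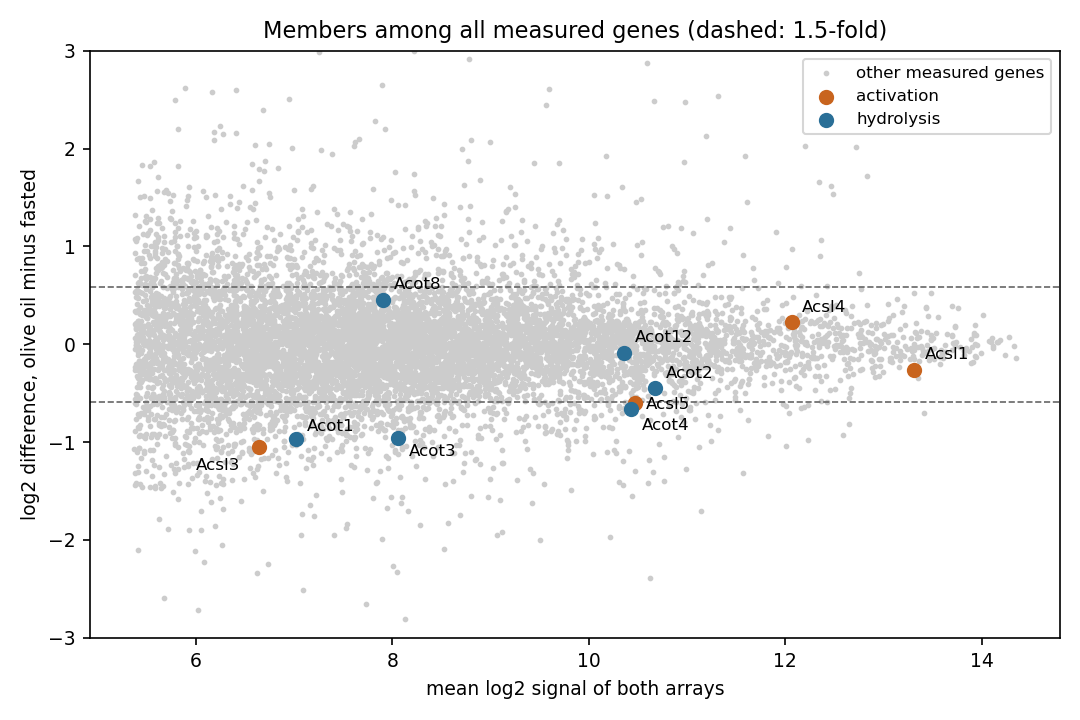
Log2 difference, olive oil minus fasted, against mean log2 signal for measured genes (grey) with the 10 members labelled, and 7 genes beyond 3 on the vertical axis not drawn. Acsl3 and Acot1 lie among dim genes, where the grey cloud is wide, while Acsl5 and Acot4 lie at the lower edge of a narrower cloud.

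Signal strength bears on how these differences are read. The members with the largest differences, Acsl3 and Acot1, are also those below the 75th percentile of signal, 181.0, where probe sets of the same gene scatter by 0.44. Acot4 and Acsl5, both well above it, lie in a range where that scatter is 0.23. Among measured genes, 1174 were brighter than Acot4 and 7148 were brighter than Acsl3. With a filter at the 75th percentile 8 members stayed, 3 of them at least 1.5-fold lower, while 7.43% of all genes passing that filter were.

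The enzymes next to the members in the same reactions were closer to no difference. Of 20 other acyl-CoA synthetases of short, medium, long and very long chains, 17 were on the arrays and 12 were measured. In this list 2 were at least 1.5-fold lower and 1 at least 1.5-fold higher, with a median log2 difference of -0.17. Of all measured genes 10.1% were that much lower and 9.44% higher, the shares beside which this and every later list count stands. Slc27a4, a fatty acid transport protein with synthetase activity, went from 119.6 to 58.9, 2.03-fold lower. Acsm5, a mitochondrial medium-chain synthetase, was 1.57-fold lower, and its relative Acsm3 went from 100.6 to 206.9, 2.06-fold higher. Of 13 other thioesterases, 8 were measured, 1 was at least 1.5-fold lower and 1 higher, with a median of -0.11. Ppt2, a lysosomal thioesterase, was 1.73-fold lower, and Them4, a mitochondrial one, went from 44.2 to 109.8, 2.48-fold higher, close to the filter on the fasted array.

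Genes that keep the coenzyme A pool or carry acyl-CoA had a median of -0.07 over 16 measured members, 2 at least 1.5-fold lower and 1 higher. Ppcs, which makes phosphopantothenoylcysteine on the way to coenzyme A, went from 1299.5 to 2609.2, 2.01-fold higher. Acbd4, an acyl-CoA binding protein, was 1.59-fold lower and Vnn1, the pantetheinase, 1.57-fold lower. Dbi, the main acyl-CoA binding protein of the cytosol, was nearly equal at 6962 and 6273, a log2 difference of -0.15.

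The lists drawn up for routes that take up acyl-CoA did not share the lower median of the members, though not every gene in them uses acyl-CoA. The list for mitochondrial entry and oxidation also held genes beside that route, and its median was -0.01 over 15 measured genes. In it 1 gene was at least 1.5-fold lower, Crot, and 1 higher, Acaca. Neither is itself an enzyme of mitochondrial entry or oxidation. Cpt1a, which commits acyl groups to mitochondria, had a signal of 4916 and 6030, a log2 difference of 0.29. Crot, which hands acyl groups from peroxisomes to carnitine, went from 5859 to 3752, 1.56-fold lower, and Acaca, acetyl-CoA carboxylase, was 1.64-fold higher. Of 13 genes listed for peroxisomes, 4 could not be used. Over the 8 measured ones the median was -0.01 but the mean was -0.21, and 2 were at least 1.5-fold lower, with 0 higher. Ehhadh, the bifunctional enzyme of peroxisomal oxidation, stood at 6745 and 3431, 1.97-fold lower, and Amacr, a racemase of branched acyl-CoA, was 1.75-fold lower.

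The list for glycerolipids and sterol esters also holds phosphatidate phosphatases, which do not use acyl-CoA. Its median was -0.12 over 12 measured genes, 3 at least 1.5-fold lower and 2 higher. Gpam, which starts glycerolipid synthesis from acyl-CoA, was 3.22-fold lower, at 139.2 and 43.2, with a log2 difference of -1.19 on its other probe set. Lpin2, a phosphatidate phosphatase, was 1.56-fold lower on its brighter probe set but 0.39 on the log2 scale on the other. Lpin1, of the same family, was 2.04-fold higher. Soat1, which esterifies cholesterol with acyl-CoA, was 2.28-fold higher from a dim 37.2 to 85.0.

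**Figure D4:**
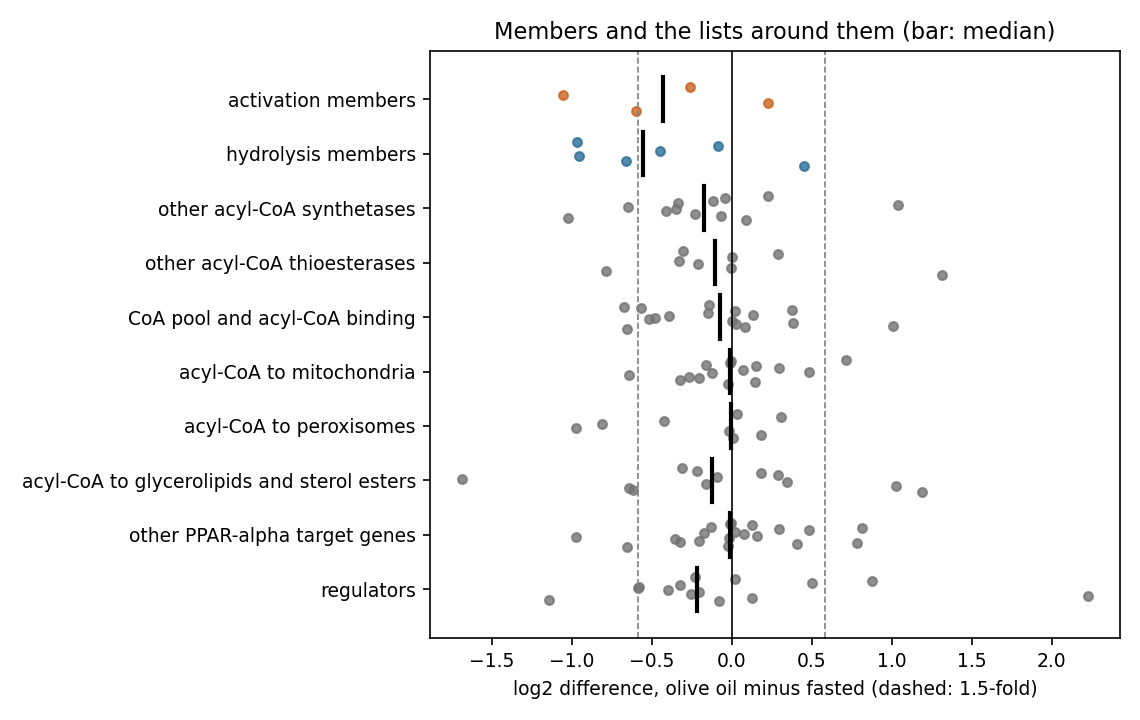
Log2 difference, olive oil minus fasted, of each measured gene in the member groups (orange and blue) and in 8 lists of related genes (grey), with a bar at each median and dashed lines at 1.5-fold. The lists are not separate sets, since Cpt1a, Ehhadh and Vnn1, among others, also stand among the PPAR-alpha targets. With the main processing, the medians of the member groups, -0.43 and -0.56, lie to the left of all 8 list medians, which run from -0.22 to -0.01. For activation this order depends on the processing. With a filter at the 75th percentile its median was -0.26 and that of regulators -0.28. With probe sets averaged it was -0.20, against -0.17 for other synthetases.

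The list of other PPAR-alpha targets leaves the members out and shares genes with the other lists, among them Cpt1a, Ehhadh and Vnn1. It had a median log2 difference of -0.01 over 20 measured genes, of which 2 were at least 1.5-fold lower and 2 higher. The lower ones were Ehhadh and Vnn1, given above. Pdk4, the kinase that holds back pyruvate oxidation, was 1.72-fold higher and Cidec, of lipid droplets, 1.76-fold higher. Angptl4, an inhibitor of lipoprotein lipase, stood at 2843 and 3104, a log2 difference of 0.13. Of 15 regulators, 14 were measured and their median was -0.22. Ppara itself was dim at 36.6 and 35.8 and did not pass the filter. Ppargc1a, a coactivator of PPAR-alpha, went from 35.0 to 164.2, 4.69-fold higher. Srebf1, the activator of lipogenic genes, was 2.21-fold lower and Nr1h3, which induces it, had a log2 difference of -0.59, while Foxo1, a factor of the fasting response, was 1.84-fold higher.

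The tissue label held up against its markers. All 8 hepatocyte markers were measured, with a median log2 difference of 0.02 and a summed signal of 106676 and 112324. Of these, 1 was at least 1.5-fold higher, Tat at 3067.9 and 6020.0, 1.96-fold, and 0 were that much lower. In whole liver, fewer cells of a type and less RNA per cell cannot be told apart. Markers of 9 other cell types were also followed, and of these the adipocyte list moved most, its summed signal going from 453.5 to 790.9. In that list 3 of 6 genes were measured and 2 were at least 1.5-fold higher, Fabp4 at 29.4 and 175.2, 5.96-fold, and Lpl at 225.2 and 340.3, 1.51-fold. Its defining markers Adipoq, at 3.2 and 28.2, and Plin1, at 15.3 and 55.3, were also higher after oil. Both were dim and did not pass the filter, and the fasted signal of Adipoq lay under the floor. The list was mixed, since Cfd, its other measured gene, was nearly equal at 163.6 and 177.9. Lep, also below the filter, was lower, at 16.8 and 14.0. The ratio of 3' to 5' signal of beta-actin, which rises as RNA breaks down, was 2.63 on the fasted and 3.20 on the olive oil array, and that of Gapdh was 1.28 and 1.34. Poly-A control transcripts had a median log2 difference of -0.18, with 21 of 27 probe sets lower after oil. The part of any of these in the members' differences was not tested.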

How the data were processed

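Total RNA from liver was biotin-labelled and hybridized to Affymetrix arrays, 1 for fasted and 1 for olive oil rats, grouped by the labels' tissue and description. The values deposited by the authors are signal intensities on a linear scale, 1 per probe set. They came from Affymetrix Expression Console, per the submitters' processing notes, with an algorithm not given in the sources used here. Means trimmed by 2% at each end were 200.1 on both arrays, so that they appear scaled to a common level. The number of arrays limits the precision, as do the probe sets.

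Of 31042 probe sets without the 57 controls, 20826 named 1 gene, 436 several and 9780 none. Names came from the platform annotation, updated by gene ID through RefSeq (GRCr8), which held 20758 IDs. Signals under the 25th percentile, 12.8, were raised to it before log2. The brightest probe set stood for a gene. Sizes of 1.5-fold and 2-fold replaced a test. Promoter stretches came from RefSeq (GRCr8) and matched all 10 members. Of 199 listed genes, 25 were not used here. Named genes were all members, up to 4 genes per list past 1.5-fold, and Ppara, Ppargc1a, Cpt1a, Gpam, Dbi and Angptl4, and 1 further gene of that rule is not reported here. The members and lists were chosen with earlier results of these data known. The functions were tested on simulated data. Python 3.11.15, numpy 2.4.6, pandas 2.3.3 and matplotlib 3.10.9 were used.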

Additional observations from a re-analysis of the deposited data

How the results depend on the processing

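The 10 members kept the sign of their difference in all 88 cases in which they were measured under 9 alternatives, and their side of 1.5-fold in 86, the exceptions being Acsl5 with quantile normalization (-0.58) and with probe sets averaged (-0.13). Many of these cases could not differ. Changing the floor or the filter, or leaving out suffixed probe sets, returned the main value for every member still measured. All alternatives also use the same 2 arrays, so these counts are no replicate check. The number of members at least 2-fold lower, 1, was 3 with the arrays centred on their medians, and 0 with an offset of 16 or a filter at the 75th percentile. That filter removed Acsl3 and Acot1, left 8 members, gave 3 at least 1.5-fold lower, and moved the medians of activation to -0.26 and of hydrolysis to -0.45, of other thioesterases to -0.21 and of glycerolipid and sterol ester genes to 0.10. Without any filter the medians were -0.069 for other synthetases, -0.0038 for other thioesterases and 0 for glycerolipid and sterol ester genes. With a gene's probe sets averaged, that of activation was -0.20, its gap to hydrolysis 0.31 and that of regulators -0.088. Without suffixed probe sets that of other thioesterases was -0.0066. Counts in the lists are small and moved by over 1.5 times in places. Lower glycerolipid and sterol ester genes, 3, were 1 with the offset and 0 with the filter at the 75th percentile, and higher ones, 2, were 1 with that filter or without suffixed probe sets. Lower coenzyme A pool genes, 2, were 4 with centred arrays, and lower regulators, 2, were 1 with quantile normalization or the offset, and higher ones, 2, were 1 with that filter. Lower other thioesterases, 1, were 0 with that filter or without suffixed probe sets, and higher ones, 1, were 0 with it and 3 with no filter. Other synthetases had 1 lower and 0 higher with it. A median counted as moved when it changed by over 0.1. No replicate could be left out, and no paired analysis was possible because each group has 1 array.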
